A study of Mus musculus with 12 samples.

Results

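Dio2 and 5 other genes that handle thyroid hormone were examined in RNA from the mouse left ventricle, 6 genes among the 56350 gene IDs measured. The group holds the deiodinases Dio2 and Dio3, the hormone receptors Thra and Thrb, the transporter Slc16a10 and the hormone-responsive transcription factor Klf9. They were chosen by name after Dio2 had been seen to differ between these same libraries, so their differences between TAC and sham in controls, and every difference of Dio2 except that between the knockout groups, are given as descriptions with no test. Genes of the wider pathway were tested in all comparisons. The ventricular apex was taken 8 weeks after surgery, which was either a sham operation or transverse aortic constriction (TAC), a band on the aortic arch that raises the pressure load on the heart. The 4 groups were lincRNA-p21 heterozygous mice after sham surgery and after TAC, called controls here, and lincRNA-p21 global knockout littermates after sham surgery and after TAC, with 3 libraries each. The labels give no age, sex or strain, no wild type group and no map of the deletion, and the controls carry 1 altered allele. The labels do not say that each library came from a different animal, so p-values measure the spread between libraries.

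Thyroid hormone leaves the thyroid mostly as the prohormone thyroxine, and cells admit it through membrane transporters. Inside the cell the type II deiodinase Dio2 removes an outer-ring iodine to make the active hormone triiodothyronine, while the type III deiodinase Dio3 inactivates both forms. The active hormone binds the nuclear receptors encoded by Thra, the main receptor gene of heart muscle, and Thrb, which pair with retinoid X receptors and exchange corepressors for coactivators at target genes. In rodent ventricle the hormone is known to favour the fast myosin Myh6 and the calcium pump Atp2a2 and to hold down the slow myosin Myh7 and the pump inhibitor Pln.

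Dio2 (ENSMUSG00000007682.6) lies on the minus strand at chr12:90724552-90738438 of GRCm38. Its promoter is shown because Dio2 is the gene of the group with the widest range of levels, and because it is known in brown fat as a gene switched on by cyclic AMP. The 250 bases before the RefSeq start (GRCm38.p6, chr12:90739039-90739288, minus strand, printed 5′ to 3′) hold in capitals a cAMP response element and a TATA box.
Dio2 promoter: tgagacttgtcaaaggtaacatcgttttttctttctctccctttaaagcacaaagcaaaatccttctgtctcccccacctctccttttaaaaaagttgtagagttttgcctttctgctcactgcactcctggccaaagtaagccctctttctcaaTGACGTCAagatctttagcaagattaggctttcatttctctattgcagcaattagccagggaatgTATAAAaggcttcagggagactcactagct
The element TGACGTCA begins 95 bases before the RefSeq start, which lies 600 bases upstream of the GENCODE start, and the letters TATAAA begin 30 bases before it. No half-site AGGTCA of nuclear receptors was found there on either strand. Across 32851 RefSeq promoter windows of the same length, searched on both strands, TGACGTCA was in 1.55%, TATAAA in 12.4% and AGGTCA in 14.0%. The RefSeq table held 5 of the 6 genes, Thra being the exception, and TGACGTCA was in none of the windows of Dio3, Thrb, Slc16a10 and Klf9. TATAAA also stood in the window of Dio3, 31 bases before the start, and in 1 of the 2 windows of Thrb, and AGGTCA in the other window of Thrb. A match in letters is a description of sequence, not a measurement of binding.

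Each library held between 10323605 and 13238934 gene reads, and levels are normalised read counts, that is reads scaled by a library's own size factor. Differences are of log2(value + 1), are given ± SE, and come out too small where a gene has few reads. Trp53cor1, the gene of lincRNA-p21, held 11 reads in the 6 control libraries, 4 of which had a read, and 0 reads in the 6 knockout libraries, so that a level of up to 0.0413 CPM is possible there (3 counts in all 6, counting error only). Mitochondrial reads made up 12.5% (control sham replicate 3) to 19.99% of a library, with 19.1% to 19.99% in knockout TAC and 15.5% to 17.1% in control TAC. The 8 heart muscle markers were detected in every group and summed to 562783 to 667414, but single markers moved apart: after TAC in controls 3 rose and 4 fell, beside 11.0% of all genes that rose and 10.6% that fell. Ttn went from 27736 to 49416 in control sham to 117843 to 151091 in control TAC, and Tnni3 from 60529 to 85724 to 33917 to 37639.

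Dio2 was near the limit of detection after sham surgery and stood far higher in the control TAC libraries than in any other. In control sham libraries it stood at 9.59, 13.3 and 6.78 normalised reads, which together rest on 31 reads. Knockout sham libraries held 19.3, 8.21 and 9.95, resting on 39 reads. The control TAC libraries held 258, 204 and 198, resting on 649 reads. Knockout TAC libraries held 28.0, 45.5 and 17.4, resting on 86 reads. The lowest control TAC library was thus above every other library, whereas knockout TAC overlapped knockout sham, and knockout sham overlapped control sham. All 3 knockout TAC libraries lay above all 3 control sham libraries. The group means were 220.0 ± 33.4 (SD, n = 3) in control TAC, 30.3 ± 14.2 in knockout TAC, 12.5 ± 5.98 in knockout sham and 9.89 ± 3.26 in control sham. Per kilobase of exon the mean level of Dio2 was 1.70 in control sham and 37.8 in control TAC, where Thrb was at 29.1 and Slc16a10 at 23.4 on the same scale. Dio2 reached the filter value of 10, below which a gene was not fitted unless 3 libraries reached it, in 8 libraries, 5 of them outside the control TAC group.

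**Figure D1:**
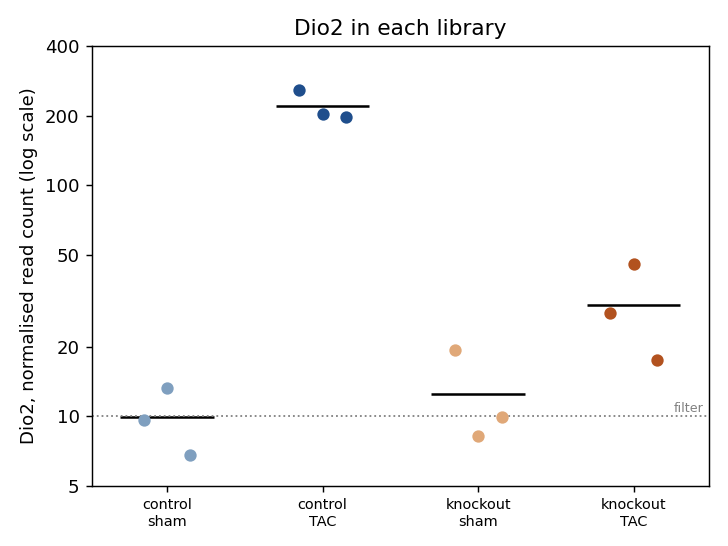
Normalised read count of Dio2 (log axis) in each of the 12 libraries by group; points are libraries, bars are group means and the dotted line is the filter value of 10. The 3 control TAC libraries sit between 198 and 258, and the highest of the other 9, knockout TAC replicate 2, is at 45.5.

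In controls the mean of Dio2 was 22.3-fold higher after TAC than after sham, a difference of 4.38 ± 0.38 on the log2 scale. In knockouts, whose libraries played no part in that contrast, it was 2.43-fold higher after TAC, a difference of 1.20 ± 0.38 with a 95% interval of 0.40 to 2.00. That difference did not pass the threshold (limma-trend over 13916 genes, Benjamini-Hochberg adjusted p = 0.613, unadjusted p = 0.00591), and with voom quality weights it did, at 1.49 and adjusted p = 0.0235. Without knockout TAC replicate 2 the difference was 0.86, and over all 24 alternative settings it stayed between 0.86 and 1.54. After TAC the knockout mean was 7.26-fold below the control mean, a difference of -2.91 ± 0.38, and after sham the genotypes differed by 0.27 ± 0.38. The sham difference was -0.08 with voom quality weights and -0.07 without knockout sham replicate 1. The difference between both TAC effects was -3.18 ± 0.54. In these 3 the control TAC or control sham libraries enter, and no test is given.

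Bulk RNA cannot tell fewer cells of a type from less RNA per cell, and the markers of several cell types moved with the control TAC group. The 6 fibroblast markers, all detected, summed to 11442 to 12095 in control TAC and to 7214 to 10300 in the other groups, a sum of which Dcn makes up the largest part. Of these 6, 1 passed after TAC in controls, upward, beside 11.0% of all genes that rose and 10.6% that fell. Tcf21 lay at 40.2 to 81.1 in control TAC against 76.0 to 116 in control sham. The 6 atrial markers summed to 3036 to 6334 in control TAC and to between 650 and 2227 elsewhere, with Sln at 0 in knockout sham. After TAC in controls 5 of these atrial markers rose and 1 fell, beside the same 11.0% and 10.6%, Stard10 being at 123 to 181 against 345 to 418. Nppa made up the largest part of the atrial sum, at 2286 to 5749 in control TAC. Sln reached the filter value only in the control TAC libraries, so its rise is a description only. The 6 mesothelial markers, all detected, summed to 57.8 to 193 in control TAC and 196 to 511 elsewhere. Of these 6, 5 fell after TAC in controls, beside 10.6% of all genes. Wt1 among them was at 48.5 to 180 in control TAC against 87.3 to 112 in control sham. The 5 erythroid markers summed to 2403 to 4113 in control TAC and to 3138 to 10438 elsewhere, so those ranges overlapped. Among the erythroid markers 3 fell after TAC in controls, beside the same 10.6%. Between genotypes after TAC 3 of the 6 fibroblast markers were lower in knockouts and 0 higher. Of the 6 atrial markers, Sln included in the list, 4 were lower and 1 higher. Of the mesothelial and of the erythroid markers 2 each were higher and 0 lower. Of the 8 heart muscle markers 4 were higher and 2 lower. Beside these stood 4.10% of all genes that were higher and 4.13% that were lower. The part of these cells in the level of Dio2 was not tested. Of the 5 brown fat markers 3 or 4 were detected per group, summing to 4211 to 4862 in control TAC and 5162 to 10238 elsewhere. Cox8b made up most of that sum, at 3439 to 4116 in control TAC. Ppargc1b among them was at 413 to 447 in control TAC and 166 to 380 elsewhere. Of the 6 skeletal muscle markers 5 or 6 were detected per group, summing to 15862 to 17590 in control TAC and to 19055 to 25704 elsewhere. Ckm made up nearly all of that sum, at 15848 to 17558 in control TAC, so the sum says little of the other listed genes. Brown adipocytes and skeletal muscle are known to express Dio2, and their defining genes Ucp1 and Myh4 had 0 reads in every library except for 1.03 normalised reads of Myh4 in control TAC replicate 2. Such a count of 0 permits 0.227 to 0.291 CPM per library (3 counts, counting error only). Of the 6 white fat markers 4 were highest in knockout TAC replicate 2, where Adipoq was at 65.4, Plin1 at 39.9, Cfd at 263 and Cidec at 44.4, and this library also held the highest Dio2 of the knockout TAC group. Fabp4 and Lep were highest in control libraries, and the summed list was highest in control sham, at 9593 against 9431 in knockout TAC. Fabp4 made up nearly all of that sum, at 9571 in control sham replicate 3.

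Dio3 (chr12:110279068-110281097), the inactivating deiodinase, was hardly detected. It had 2 reads in the control sham group, 5 in control TAC, 1 in knockout sham and 2 in knockout TAC, and it ran from 0 to 3.09 normalised reads over the 12 libraries. No library reached the filter value, so Dio3 was not fitted and its groups, all of which overlapped, cannot be ranked at this depth. Dio3os, the noncoding transcript on the opposite strand beside it, was at 1.11 to 8.48. Gm26512, an antisense transcript that overlaps the 5′ end of Dio2 by 238 bases, was at 0 to 3.33. Dio1, the deiodinase of liver and kidney, had 0 reads in every library.

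Thra, the main receptor gene, was plentiful in every library and slightly lower after TAC in both genotypes. Control sham libraries stood at 1722, 1436 and 1719, and control TAC libraries at 1381, 1101 and 1223. Knockout sham libraries were at 1748, 1645 and 1575, and knockout TAC libraries at 1304, 1361 and 1518. Within each genotype all 3 TAC libraries lay below all 3 sham libraries, while the genotypes overlapped after either surgery. The difference after TAC was -0.40 ± 0.13 in controls, given with no test, and -0.10 when the trend of each library on transcript length and GC content was removed. In knockouts it was -0.25 ± 0.13, which did not pass (adjusted p = 0.742). Knockout and control differed by 0.03 after sham (95% interval -0.24 to 0.30) and by 0.18 after TAC (95% interval -0.09 to 0.45, adjusted p = 0.412), and the difference of both TAC effects was 0.15 ± 0.18 (adjusted p = 0.732). Thra (chr11:98740638-98769006) shares 1075 bases with the antisense gene Nr1d1, and whether counting used strand is not given in the sources used here. Means of Nr1d1 were 1786 in control sham, 1272 in control TAC, 1492 in knockout sham and 1388 in knockout TAC, with the lowest library, control TAC replicate 2, at 760.2. Control TAC had the lowest mean for both genes, though its Nr1d1 libraries ran from 760 to 1730 and overlapped those of every other group. The share of reads exchanged between Thra and Nr1d1 was not tested.

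Thrb (chr14:17660261-18038090), the other receptor gene, showed no separation of groups. It stood at 237, 164 and 147 in control sham and at 255, 219 and 171 in control TAC. Knockout sham libraries held 199, 198 and 247, and knockout TAC libraries 162, 144 and 236. Every pair of neighbouring groups overlapped. Its difference after TAC was 0.25 ± 0.22 in controls (-0.04 with the length and GC trend removed) and -0.27 ± 0.22 in knockouts (adjusted p = 0.852), and the difference of these effects, -0.52 with a 95% interval of -1.17 to 0.13, did not pass (adjusted p = 0.413). Per kilobase of exon Thra exceeded Thrb 14.8 ± 3.63 times in control sham, 9.41 ± 1.84 times in control TAC, 12.5 ± 2.03 times in knockout sham and 12.8 ± 2.40 times in knockout TAC (SD, n = 3). In controls the highest TAC ratio, 11.5, was just under the lowest sham ratio, 11.7, and in knockouts the ranges overlapped.

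Slc16a10 (chr10:40033532-40142258), a monocarboxylate family transporter that carries thyroid hormone and aromatic amino acids, had a lower mean after TAC in both genotypes and did not pass the threshold in any comparison where it was tested. Its libraries stood at 272, 212 and 168 in control sham and at 181, 149 and 186 in control TAC. They stood at 295, 252 and 268 in knockout sham and at 162, 217 and 201 in knockout TAC. In knockouts all 3 TAC libraries lay below all 3 sham libraries, and in controls the groups overlapped. The differences were -0.31 ± 0.18 in controls and -0.49 ± 0.18 in knockouts, the latter with an unadjusted p of 0.0137 and an adjusted p of 0.642 (0.0182 with voom quality weights). Between genotypes Slc16a10 differed by 0.35 ± 0.18 after sham (adjusted p = 0.934) and by 0.16 ± 0.18 after TAC (adjusted p = 0.616).

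Klf9 (chr19:23141226-23168134), a zinc finger transcription factor induced by thyroid hormone and by glucocorticoids, was as high in control TAC as in control sham libraries. Control sham libraries held 1509, 1815 and 1052, the lowest being replicate 3. Control TAC libraries held 1678, 1432 and 1381, so the group with the highest Dio2 overlapped its sham group for Klf9. Knockout sham libraries held 1153, 1355 and 1199.5, and knockout TAC libraries 1074, 995 and 1234. The TAC differences were 0.07 ± 0.17 in controls (-0.15 without control sham replicate 3) and -0.17 ± 0.17 in knockouts (adjusted p = 0.896). After TAC all 3 knockout libraries lay below all 3 control libraries, a difference of -0.44 ± 0.17 that did not pass over all genes (unadjusted p = 0.0183, adjusted p = 0.111). It passed with the TAC libraries fitted alone (adjusted p = 0.0395), with voom quality weights (0.00322) and without control sham replicate 3 (0.0170). The adjusted p over all alternatives ran up to 0.338. After sham the genotypes overlapped and differed in the same direction, by -0.21 ± 0.17 (limma-trend, adjusted p = 0.934). The difference of both TAC effects was -0.24 ± 0.24 (limma-trend, adjusted p = 0.666). The lower Klf9 of knockouts was thus not shown to be specific to TAC.

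**Figure D2:**
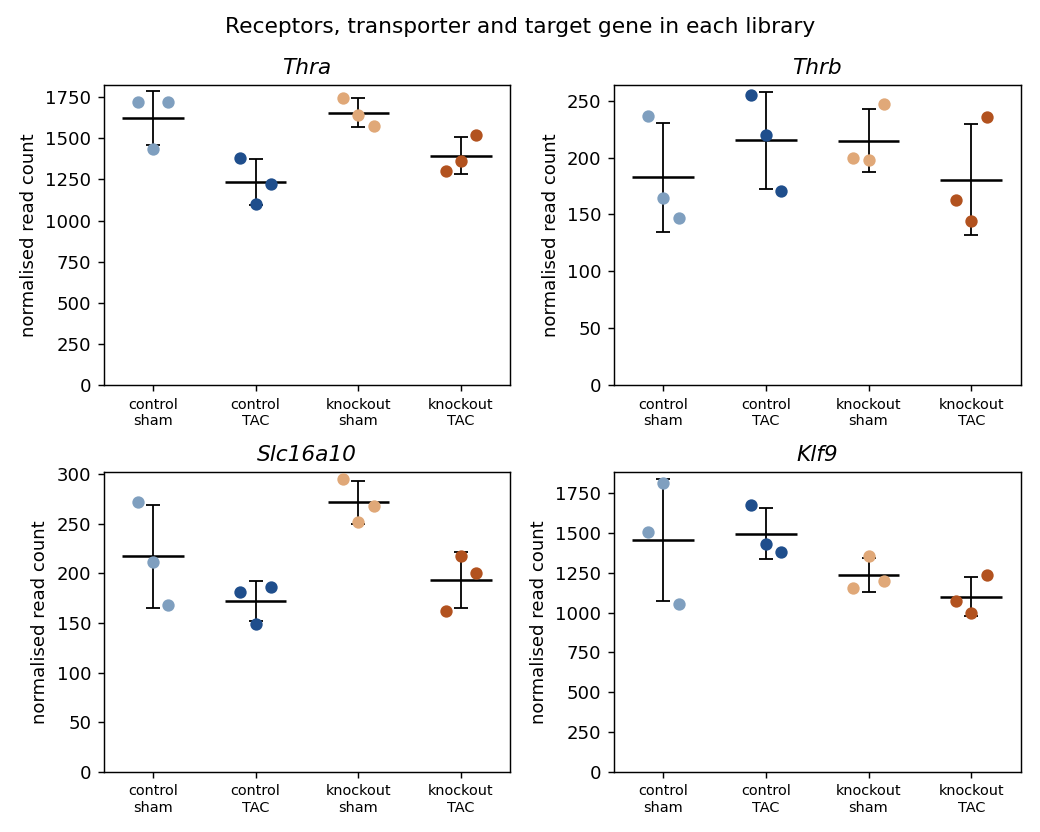
Normalised read counts of Thra, Thrb, Slc16a10 and Klf9 in each library by group, on axes that start at 0; points are libraries, bars are means and error bars are SD (n = 3). Thra is lower in the TAC libraries of both genotypes, from 1101 to 1381 in controls and from 1304 to 1518 in knockouts, while the groups of Thrb overlap.

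The glucocorticoid-induced genes were followed as a second reading beside Klf9. Of the 6 listed genes (Fkbp5, Tsc22d3, Per1, Zbtb16, Sgk1 and Pdk4) all were tested and limma-trend called 0 in each of the 5 comparisons. Between genotypes after sham all 6 were lower in knockouts, with a median of -0.51 against 0.03 for all genes. Of the 6, 1 had an unadjusted p under 0.05 there (limma-trend), and 0 had for the difference of TAC effects. Between genotypes after TAC all 6 were lower too, with a median of -0.79 against 0.01 for all genes. An unadjusted p under 0.05 was held by 3 of them, and by 3477 of all 13916 genes. There edgeR called 0, DESeq2 called Pdk4 and Per1, and voom called Per1 and Zbtb16, as did the fit without control TAC replicate 3, and Per1 alone passed without control sham replicate 2 or in the TAC libraries alone. Their mean log2 level split the libraries: control sham replicate 2 and control TAC replicates 1 and 2 stood at 10.43 to 10.74, and the other 9 libraries at 9.17 to 9.73. Klf9 was highest in control sham replicate 2 and next highest in control TAC replicate 1. Within the 9 lower libraries, a split chosen after these levels were seen, Klf9 and the list mean had a Pearson r of 0.25 (exact permutation p = 0.523) and a Spearman rho of 0.28 (exact permutation p = 0.463), two-sided. Leaving out control sham replicate 3 and knockout TAC replicate 2, the farthest from the median, gave r = 0.45. These lower libraries come from all 4 groups and were permuted without regard to group. The p-values thus do not separate group differences from a relation between single libraries. Leaving out the 3 highest libraries also narrowed the range of the list mean, so these r do not describe all 12 libraries. In the 9 libraries outside control TAC, Klf9 and Dio2 had r = -0.43 and rho = -0.38, and r = 0.10 without knockout TAC replicates 1 and 2. No test is given for Klf9 with Dio2, since Dio2 was chosen from these data and the libraries were split on its level.

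**Figure D3:**
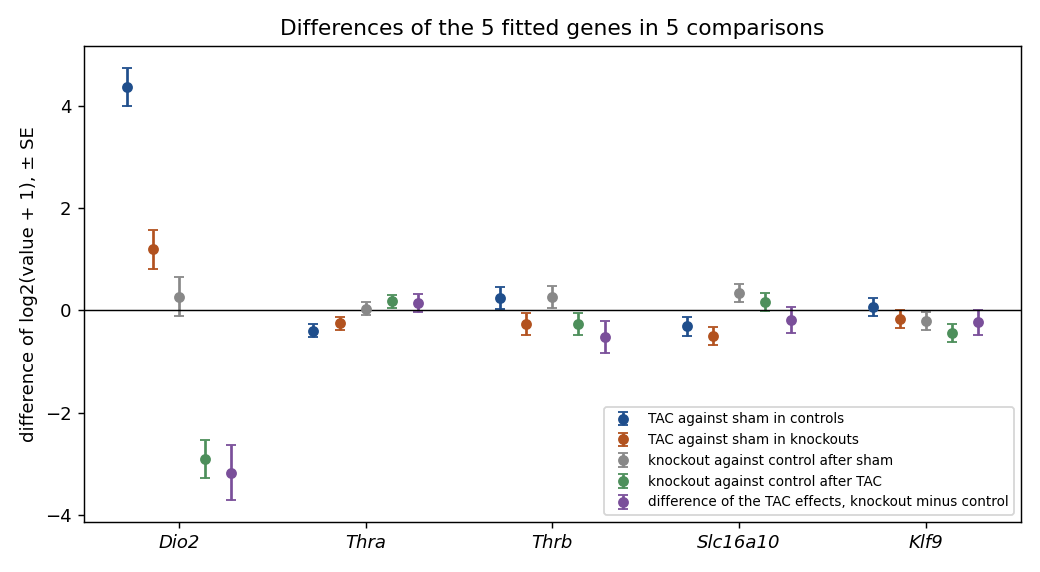
Differences of log2(value + 1) ± SE for the 5 fitted genes in the 5 comparisons, one colour per comparison, with Dio3 absent because it did not reach the filter. Dio2 spans from -3.18 to 4.38, and the differences of the other 4 genes lie between -0.52 and 0.35.

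The wider pathway was read from 66 genes in 11 lists, of which 57 reached the filter. After TAC in controls 9 of the 57 rose, 6 fell and 42 did not pass, beside 11.0% of all 13916 genes that rose and 10.6% that fell. The median difference of the list was 0.11, and that of all genes 0.01. Of the 15, 8 were partners or cofactors of the receptor, 5 were cardiac targets, and the others were Slc7a5 and March6. With each library's trend on length and GC content removed 6 genes passed, of which 3, Myh7 and Slc7a5 among them, were shared with the 15. Without control TAC replicate 1 or replicate 2 the count was 8 and 7. Over all genes the count was 3006 in the main fit, 1524 with the trend removed, and 1934 and 1549 without these replicates.

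All 3 retinoid X receptor genes, whose products pair with the thyroid receptors, fell after TAC in controls. Of all genes 10.6% fell there and 11.0% rose, shares that also stand beside the cofactor counts below. Rxrg, the form of striated muscle, fell from 1110 ± 159 to 668 ± 97.2, a change of -0.73 ± 0.14 (adjusted p = 0.00247). Rxrb changed by -0.47 ± 0.14 and Rxra by -0.40 ± 0.13 (adjusted p = 0.0276 and 0.0406), and with the length and GC trend removed none of the 3 passed, with Rxrg at -0.42. The Rxra call held in 3 of the 12 fits that leave out a library, and that of Rxrb in 8, and the fits that lost Rxrb lacked replicate 2 or 3 of control sham, or else replicate 1 or 2 of control TAC. Among the 6 corepressor genes Ncor1, a scaffold of the repressor complex, rose by 0.63 ± 0.15 and Tbl1xr1 by 0.61 ± 0.21, and 4 did not pass. Among the 6 coactivator genes Ncoa2 rose by 0.78 ± 0.23, the acetyltransferase Ep300 by 0.64 ± 0.15 and the Mediator subunit Med1 by 0.44 ± 0.15, and 3 did not pass. None of these 5 cofactors passed with the trend removed. Leaving out a library kept the call of Med1 in 3 of 12 fits, of Tbl1xr1 in 4 and of Ncoa2 in 8, and those of Ncor1 and Ep300 in all 12.

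Cardiac genes that thyroid hormone is known to induce included 3 of 11 that fell and 0 that rose, beside 10.6% and 11.0% of all genes. Among them the glucose transporter Slc2a4 fell by 0.44 ± 0.14 (adjusted p = 0.0328) and the pacemaker channel Hcn2 by 0.66 ± 0.21 (adjusted p = 0.0335), calls that each held in 8 of 12 fits with a library left out and not with the trend removed. Myh6 (262674 to 273947) and Atp2a2 (134512 to 143792), the best known induced genes, differed by 0.06 ± 0.16 and 0.17 ± 0.20 (adjusted p = 0.828 and 0.583). Of 5 genes that the hormone is known to hold down, Myh7 and the sodium-calcium exchanger Slc8a1 rose, beside the same 11.0%. Myh7 stood at 2429, 3978 and 4584 in control sham and at 43077, 56882 and 26011 in control TAC, groups far apart, with a change of 3.50 ± 0.26. Slc8a1 rose by 1.04 ± 0.25 (adjusted p = 0.0103, and 0.38 with the trend removed, which did not pass), while Pln was at -0.33 ± 0.14 (adjusted p = 0.107).

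The remaining lists around the deiodinases held few changes in controls, to be read beside 11.0% of all genes that rose and 10.6% that fell. Of 10 transporter genes 6 were tested, and Slc7a5, a subunit of the amino acid carrier that also admits thyroid hormone, rose from 59.6 ± 13.4 to 107 ± 28.7, by 0.81 ± 0.23 (adjusted p = 0.0206), a call that ended when replicate 3 of control sham, or replicate 1 or 2 of control TAC, was left out. Of 5 genes for turnover of the Dio2 protein March6, a ubiquitin ligase that targets it, rose by 0.77 ± 0.23 (adjusted p = 0.0301). It did not pass without control TAC replicate 1 or 2, nor with the trend removed (0.43, adjusted p = 0.170), and ranged from 0.39 to 1.06 over the alternatives. Limma-trend, edgeR, DESeq2 and voom called none of the 6 selenoprotein synthesis genes, which insert the selenocysteine of deiodinases. Sepsecs and Trnau1ap passed without control sham replicate 1, and Eefsec without control TAC replicate 3. In the main fit 2 of these 6 had an unadjusted p under 0.05, beside 4940 of all 13916 genes. Of 3 general hormone targets limma-trend called 0, with 2 at an unadjusted p under 0.05. Among them Hr was at 0.66 ± 0.23 (adjusted p = 0.0506), and edgeR, DESeq2 and the fit with the trend removed called it. The 5 genes of deiodination and hormone binding did not reach the filter, Serpina7 had 0 reads, and the cytosolic hormone-binding protein Crym was at 0.949 to 14.4.

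In knockouts 0 of the 57 pathway genes passed after TAC, beside 0.00719% of all genes (limma-trend, 1 gene, with 929 at an unadjusted p under 0.05, and by edgeR 1, DESeq2 23 and voom 843). Among the 57, 5 had an unadjusted p under 0.05, edgeR and DESeq2 called 0 and voom called 6, all lower, with Adcy6, Rxrg, Secisbp2 and Usp20 among them. Rxrg differed by -0.43 ± 0.14 (adjusted p = 0.631), and Myh7, from 10003 ± 441 to 15713 ± 2683, by 0.64 ± 0.26 (adjusted p = 0.699). The lowest Myh7 library of knockout TAC, at 13567, lay above the highest of knockout sham, at 10469. With the compared libraries fitted alone Myh7 passed.

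**Figure D4:**
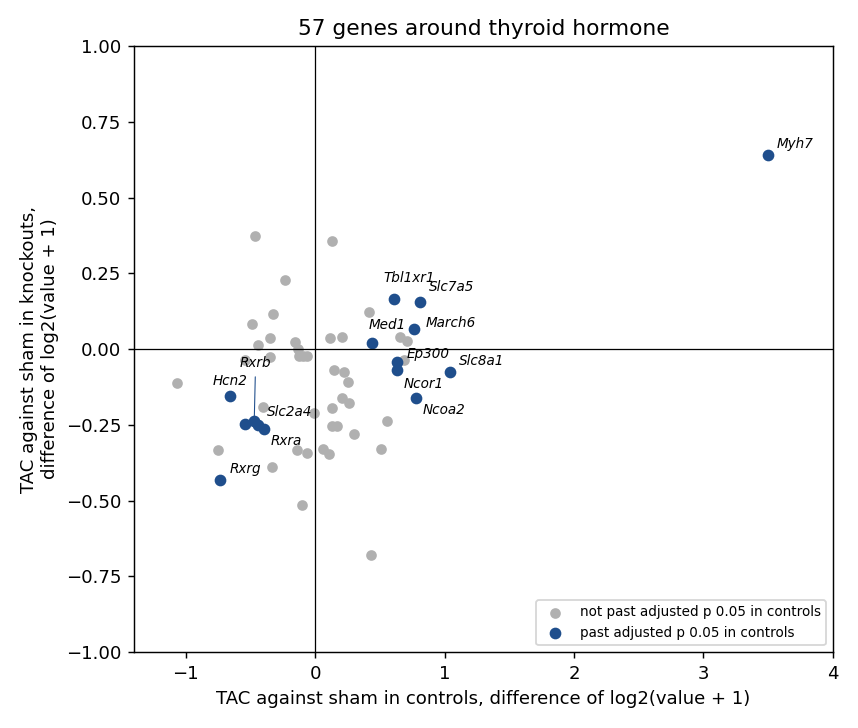
Difference of log2(value + 1) after TAC for the 57 pathway genes, in controls on the horizontal axis and in knockouts on the vertical axis; blue points passed an adjusted p of 0.05 in controls. The 15 blue points, not all of them named, spread from -0.73 to 3.50 in controls and from -0.43 to 0.64 in knockouts.

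Between genotypes after sham surgery 0 of the 57 passed, beside 0% of all genes (limma-trend, 604 at an unadjusted p under 0.05, and by edgeR 0, DESeq2 1 and voom 0). Myh7 had the smallest p of the 57 there, with 9949, 10469 and 9592 in knockout sham libraries, all above the control sham libraries. Its difference had a 95% interval of 0.94 to 2.06 (limma-trend, unadjusted p = 4.8e-05, adjusted p = 0.669), and DESeq2 called it.

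Between genotypes after TAC 2 pathway genes were higher in knockouts and 3 lower, beside 4.10% and 4.13% of all genes. The share of mitochondrial reads was higher in all 3 knockout TAC libraries than in the control TAC libraries, and its part in these differences was not tested. Pln, the inhibitor of the calcium pump, was at 15319 ± 6.48 in knockout TAC and 10379 ± 677 in control TAC, a difference of 0.56 ± 0.14 (adjusted p = 0.0233). Rxrg was higher by 0.49 ± 0.14 (adjusted p = 0.0414). Myh7 differed by -1.36 ± 0.26 (adjusted p = 0.00903) and Ep300 by -0.65 ± 0.15 (adjusted p = 0.0169). With the length and GC trend removed Rxrg was at 0.26 and Ep300 at -0.25, which did not pass, while Pln and Myh7 did. Leaving out a library kept the call of Rxrg in 5 of 12 fits, of Ep300 and Pln in 8, and of Myh7 in all 12. Myh7 alone passed without replicate 1, or without replicate 2, of either TAC group. The count was 9 without control sham replicate 1 or without control TAC replicate 3, and 11 without control sham replicate 3 or without knockout TAC replicate 3. Voom quality weights called 24 and DESeq2 11, which in both cases included these 5. Over all genes voom called 3812 and DESeq2 1701, against 1145 in the main fit, and leaving out a library gave 202 to 2143.

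The TAC effect itself differed between genotypes for 1 of the 57 genes, beside 0.0144% of all genes with a higher and 0.295% with a lower effect in knockouts. That gene was Myh7, at -2.86 ± 0.37 (adjusted p = 0.00426), and it passed in each of the 23 alternative settings, between -3.17 and -2.59. The ratio of Myh7 to Myh6 per kilobase was 0.0110 ± 0.00370 in control sham, 0.122 ± 0.0501 in control TAC, 0.0248 ± 0.00162 in knockout sham and 0.0519 ± 0.0245 in knockout TAC. The number of pathway genes rose to 7 without control sham replicate 1, to 2 without control sham replicate 3 or knockout TAC replicate 3, and to 10 with voom quality weights. Over all genes the count was 43 in the main fit and 755, 102, 283 and 1573 in these fits.

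Genes were ranked by how like their pattern was to that of Dio2 across the 12 libraries. Likeness was Pearson's r of log2(value + 1), used here as a ranking, since the 3 control TAC libraries stand apart and give most of each r. Postn, a matricellular protein of activated fibroblasts, ranked first (r = 0.99). The matrix protein Cilp (0.98), the collagen Col8a1 (0.98), the oxidase Nox4 (0.97) and the thrombospondin Thbs4 (0.96) followed. Next were Ltbp2 (0.95), tenomodulin Tnmd (0.95) and osteopontin Spp1 (0.95). After the group means were removed r was 0.87 for Postn, 0.80 for Cilp, 0.74 for Col8a1 and 0.69 for Nox4. It was 0.44 for Thbs4, 0.58 for Ltbp2, 0.56 for Tnmd and 0.94 for Spp1. Postn, Cilp, Col8a1, Nox4 and Thbs4 stayed among the first 8 whichever library was left out. Ltbp2 did so in 7 of the 12 cases, Tnmd in 5 and Spp1 in 4, and without control TAC replicate 1 5 of the 8 remained. Postn stood at 2376, 2878 and 2546 in control TAC and at 886, 1015 and 529 in knockout TAC, and its knockout TAC libraries ranked as those of Dio2 did. Tnmd, a tendon protein, was at 22.7, 21.6 and 24.2 in control TAC, at 1.11 in knockout TAC replicate 2 and at 0 in the other 8 libraries. Nox4, Tnmd and Spp1 met the filter of 10 in 3 libraries only because the control TAC libraries were counted. Their place among the genes most like Dio2 thus follows in part from the filter and is a description only. The genes most opposite to Dio2 were Dgcr2 (-0.98), Ppt2 (-0.98), the sodium pump subunit Atp1b2 (-0.97) and the membrane metalloproteinase Mmp15 (-0.96), and Atp1b2 fell from 358 in control sham to 213 in control TAC on average, with 364 in knockout sham and 300 in knockout TAC.

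**Figure D5:**
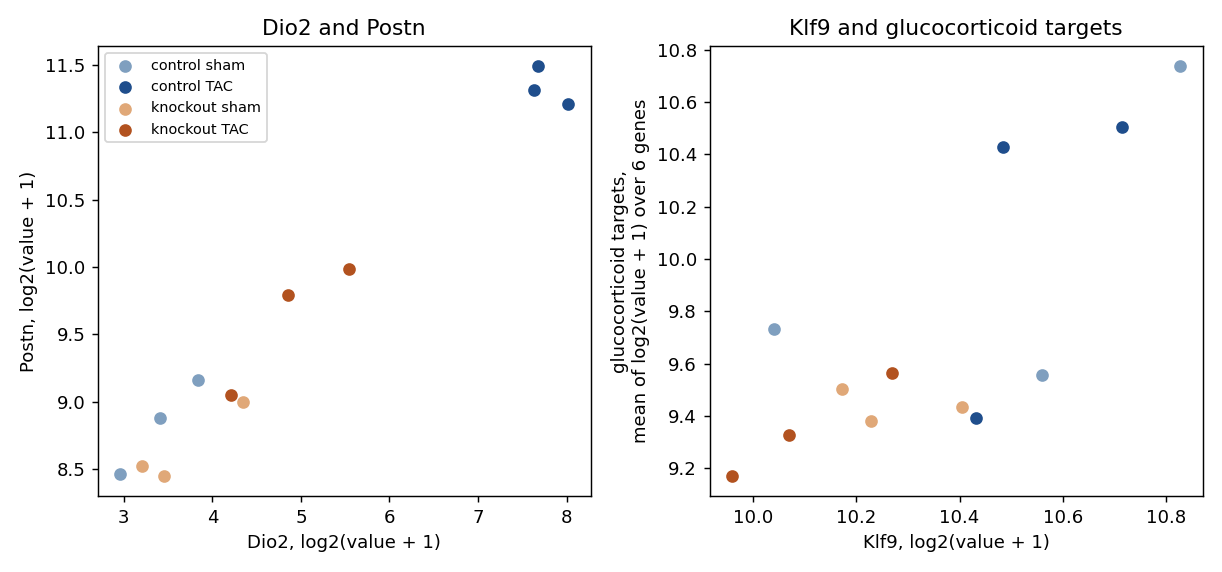
Left, log2(value + 1) of Postn against Dio2; right, the mean log2(value + 1) of 6 glucocorticoid-induced genes against Klf9, each point 1 of 12 libraries coloured by group. On the left the 3 control TAC libraries form a cluster of their own, and on the right the 3 libraries at 10.43 to 10.74 stand above the other 9, at 9.17 to 9.73.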

How the data were processed

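Ventricular apex RNA was extracted with TRIzol, and stranded libraries of polyadenylated RNA were sequenced, per the labels' protocols. The submitters' processing notes name the build GRCm38.p6 and the tools STAR, SAMtools and featureCounts without versions. Which annotation, strand setting and normalisation were used is not given in the sources used here. What the authors deposited are signal values, reads of each gene over a size factor of the library: all values are whole multiples of one step (100% within 0.01), and the factors equal median-of-ratios factors of the recovered reads (largest difference 2.0e-11). Of 56350 IDs 55480 matched GENCODE M21, which gave names, lengths and coordinates, and the other 870 held 0.0013% of reads.

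The 13916 genes that reached a value of 10 in 3 or more libraries were fitted with limma-trend (limma 3.58.1, R 4.3.3, robust) on log2(value + 1), with 4 group means over 12 libraries and 5 contrasts, each adjusted by Benjamini-Hochberg at 0.05. edgeR 4.0.16, DESeq2 1.42.0 and voom on the recovered reads, other scalings, filters and pseudocounts (0.5 and 5), a block for replicate numbers, the compared libraries alone, removal of each library's length and GC trend by loess (span 0.5), and leaving out each library were alternatives. The fit was tested on simulated data. The correlation of Klf9 with the glucocorticoid list used two-sided exact permutation tests without regard to group (scipy 1.17.1, Python 3.11.15). Promoter sequence came from RefSeq.

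The members, gene lists and tests were chosen with earlier results of these data known. The text names the 6 members, up to 4 genes of each pathway list that passed, a fixed set of 9 hormone and heart genes, and the 8 genes most and 4 least like Dio2; some genes that the rule names are not reported here, though they stay in the counts.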

Additional observations from a re-analysis of the deposited data

Results flagged for a closer look

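The effect of TAC on Myh7 differed between genotypes by -2.86 ± 0.37 on the log2 scale (limma-trend, adjusted p = 0.00426 over 13916 genes). Myh7 rose in controls. In knockouts it was at 15713 ± 2683 after TAC against 10003 ± 441 after sham (SD, n = 3), which passed only with the compared libraries fitted alone. In both genotypes all 3 TAC libraries lay above all 3 sham libraries.

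The corresponding difference for Dio2 was -3.18 ± 0.54, listed without a test because Dio2 was chosen from the control TAC libraries that enter it. Groups of 3 libraries are too small for a check of single outlying libraries.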

How the results depend on the processing

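The 25 differences of the 5 fitted members were recomputed under 12 settings of the processing and 12 that leave out a library, giving 595 values. Of these 586 kept their direction and side of the threshold, or, where untested, moved by less than the spread between replicates. The sign turned in 10 values. Of those with a test, these were Thra between genotypes after sham, at -0.0566 without control sham replicate 2 and -0.00946 without knockout sham replicate 1 (leaving out a library gave -0.0566 to 0.0740 in all), and Slc16a10 in the difference of TAC effects, at 0.0188 with the length and GC trend removed. Of those without a test, they were values of Dio2 between genotypes after sham (lowest -0.0819), and of Klf9 (lowest -0.150) and Thrb (lowest -0.0433) after TAC in controls. With that trend removed Thra after TAC in controls was -0.10. Dio2 after TAC in knockouts passed with voom quality weights (1.49), and 4 more member values, of Slc16a10 and Klf9, passed as given above. The fit of the compared libraries alone gives no difference of TAC effects.

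Counts of pathway genes that passed moved more. After TAC in controls (15) they were 6 with the length and GC trend removed and 5 in the compared libraries alone, and 7 to 17 with a library left out. After TAC in knockouts (0) they were 1 in the compared libraries alone and 6 with voom, and 0 with any library left out. Between genotypes after sham (0) DESeq2 gave 1, and leaving out a library 0 to 1. Between genotypes after TAC (5) the counts were 11 with DESeq2, 3 with the trend removed, 10 in the compared libraries alone and 24 with voom, and 1 to 11 with a library left out. For the difference of TAC effects (1) they were 2 with DESeq2 and 10 with voom, and 1 to 7 with a library left out. Calls over all genes moved too, from 3006 after TAC in controls to 1524 with the trend removed and 1433 in the compared libraries alone. In knockouts they went from 1 to 32 in the compared libraries alone and 843 with voom. Between genotypes after TAC they were 1145, with DESeq2 1701, with the trend removed 507, with the compared libraries alone 1430 and with voom 3812. For the difference of TAC effects they went from 43 to 480 with DESeq2 and 1573 with voom. Of the 8 genes most like Dio2, 5 to 8 stayed when a library was left out. The cause of these shifts was not tested.

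Replicate numbers did not pair the libraries (correlations of deviations from -0.07 to 0.16). With the replicate block 17 pathway genes passed after TAC in controls, 0 in knockouts, 0 and 5 between genotypes after sham and after TAC and 1 for the difference of effects, and no call on a member changed. Over all genes the counts with the block were, in the same order, 3151, 3, 0, 1198 and 47. Depth limits Dio3 and, after sham, Dio2, with 1 to 5 and 31 to 39 reads per group.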
